A study of Mus musculus with 6 samples.

Results

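The glycerolipid acyltransferases are the enzymes that add fatty acids to a glycerol backbone, and 9 of them are described here: Gpam, Gpat3, Gpat4, Agpat1, Agpat2, Agpat3, Mogat1, Dgat1 and Dgat2. They were taken by name, not by their values, out of 18193 genes measured on a mouse 3' expression microarray, where they are represented by 17 probe sets. The liver samples came from 18-week-old male mice of 2 inbred strains, 3 arrays each. The New Zealand Obese strain (NZO) becomes obese and diabetic on ordinary chow with features of the metabolic syndrome. The C57BL/KS strain (BKS), labelled wild type, had the same housing and chow and served as the control. The design text speaks of littermates, although the 2 groups are different inbred strains, and it names no litters. Strain is thus the only factor that the labels give.

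Triglyceride synthesis in the liver starts with glycerol-3-phosphate. Glycerol-3-phosphate acyltransferases (Gpam at the outer mitochondrial membrane, Gpat3 and Gpat4 in the endoplasmic reticulum) add the first fatty acid and give lysophosphatidic acid. Acylglycerolphosphate acyltransferases (Agpat1, Agpat2, Agpat3) add the next one and give phosphatidic acid, from which a phosphatase makes diacylglycerol. Monoacylglycerol acyltransferases such as Mogat1 reach the same diacylglycerol from monoacylglycerol. Diacylglycerol acyltransferases (Dgat1, Dgat2) add the last fatty acid, and Mogat1 belongs to the same protein family as Dgat2, to which Dgat1 is unrelated. Phosphatidic acid and diacylglycerol are also starting points for membrane phospholipids.

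Values are log2 expression after RMA, so a difference of 1 is a doubling of signal. Differences in level between probe sets are not read as differences in the amount of transcript. The 7 hepatocyte markers measured averaged 13.1, 14.0 and 14.0 in NZO replicates 1 to 3 and 14.0 in each BKS array. No gene passed the test between strains in any of 12 marker lists, where 0.742% of all genes did. The arrays titled number 1 in each strain (replicate 1 of NZO and of BKS) had lower spiked-in hybridization controls, at 8.17 in NZO and 9.29 in BKS, than the other 4 arrays (10.2 to 11.5). The 3' minus 5' signal of beta-actin, which grows as transcripts are shortened from the 5' end, was 1.29 to 1.39 in NZO and 1.72 to 2.33 in BKS, without overlap. That of Gapdh was -0.04 to 0.14 in NZO and 0.45 to 0.98 in BKS, also without overlap. The 18S ribosomal RNA probe sets read 4.64, 5.52 and 4.90 in NZO and 4.51, 10.5 and 7.91 in BKS, so that BKS replicates 2 and 3 stood above the other 4 arrays. The mean over 8 sinusoidal endothelial markers was 7.01 to 7.75 in NZO and 6.65 to 6.97 in BKS, again without overlap, and all 8 had a log2 fold change above 0 without passing. The part of these measures of RNA quality and of endothelial content in the results below was not tested. In whole tissue, more cells of a type and more RNA per cell cannot be told apart.

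Of the 9 genes, 2 rose in NZO, Gpat3 and Mogat1, none fell, and 7 did not pass at an adjusted p below 0.05 (limma, Benjamini-Hochberg over all genes). Over all genes 0.742% passed, 59 higher and 76 lower in NZO. The median log2 fold change of the 9 genes was -0.06, against -0.03 over all genes. By the brightest probe set of each gene, the 2 that rose were also the only members whose 3 NZO values all lay above the 3 BKS values. By the same probe sets, 17.0% of all genes separated in one direction or the other. With the arrays titled number 1 entered as a block, the same 2 members passed and no other, while 6.55% of all genes did.

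**Figure D1:**
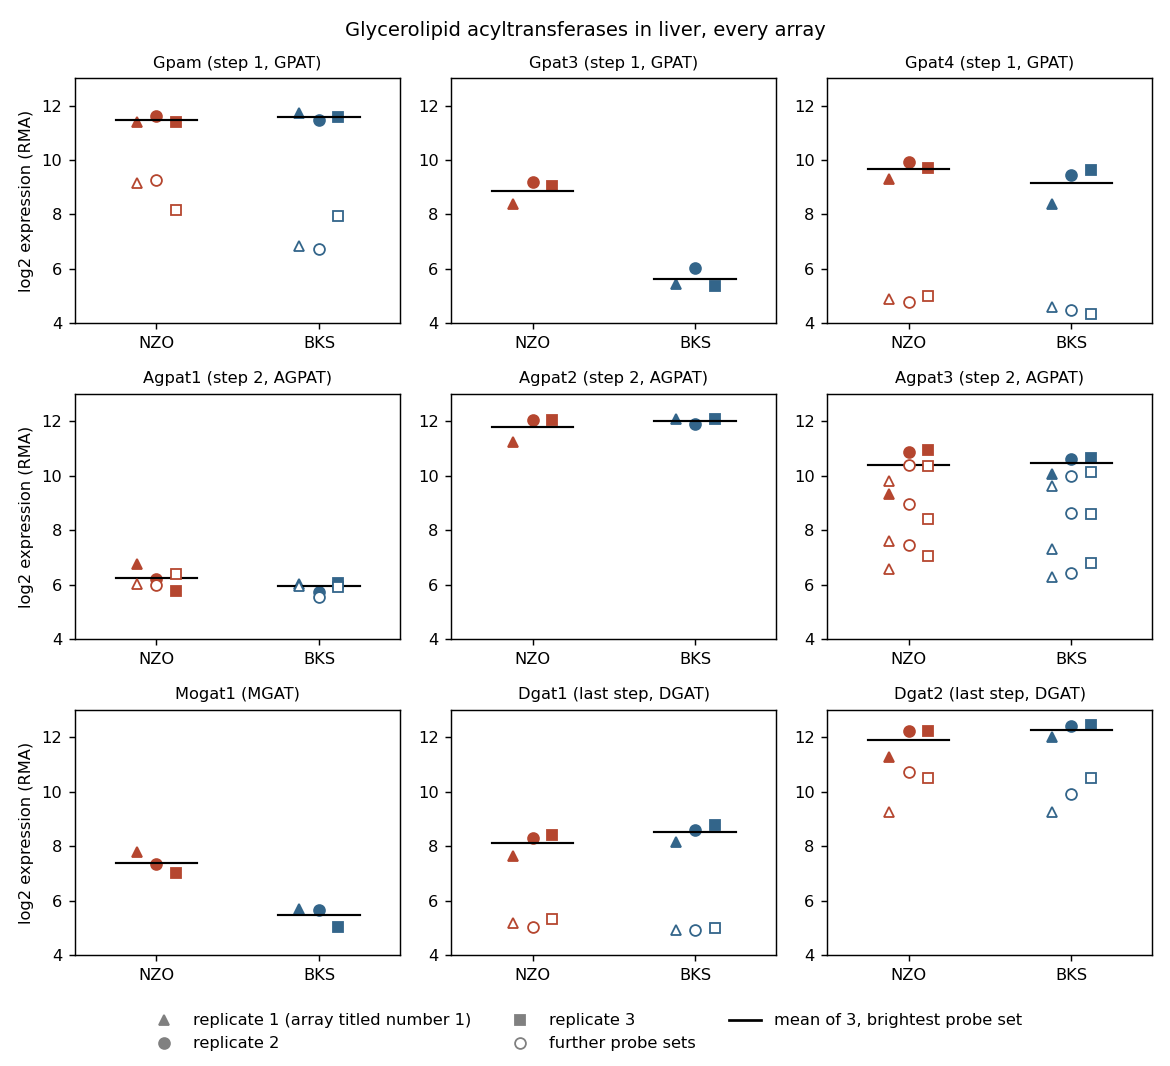
Log2 expression of the 9 acyltransferases in each of the 3 NZO and 3 BKS arrays. Filled symbols are the brightest probe set of a gene, open symbols its further probe sets, triangles the arrays titled number 1, and lines the mean of 3 arrays. Gpat3 and Mogat1 separate by strain in their single probe set, and Gpam, Gpat4, Agpat1 and Dgat1 separate only in their dimmer probe set.

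Gpat3 carried the largest change among the 9. Its log2 values were 8.39, 9.20 and 9.04 in NZO replicates 1 to 3, and 5.45, 6.03 and 5.39 in BKS replicates 1 to 3. Every NZO array was thus more than 2 units above every BKS array. The means were 8.88 ± 0.43 in NZO and 5.62 ± 0.36 in BKS (SD, n = 3 each), a 9.54-fold difference (log2 fold change 3.25, standard error 0.27, 95% interval 2.62 to 3.89, adjusted p = 0.00352). The level in NZO exceeded 89.0% of all probe sets and the level in BKS 58.8%, so in BKS the probe set lay not far above the middle of the array. Only 5 of the 18193 genes had a higher log2 fold change. The difference was 2.94 between the number 1 arrays and 3.41 among the other 4. Gpat3 passed in each of 15 alternatives, with log2 fold changes from 3.09 to 3.50. Adjusted over all 45037 probe sets instead of genes, its p was 0.00833, and it missed the threshold without NZO replicate 3 (adjusted p = 0.0732) or BKS replicate 3 (adjusted p = 0.0703).

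Gpat3 makes lysophosphatidic acid in the endoplasmic reticulum and is best known from fat cells, where it is abundant. Of 8 adipocyte markers 5 were measured, and none passed. Their mean was 5.59 to 5.93 in NZO and 5.36 to 5.82 in BKS, ranges that overlap. Adiponectin (Adipoq), which defines fat cells, was near the bottom of the scale with 3.80, 3.94 and 3.85 in NZO and 4.12, 3.86 and 3.92 in BKS. Leptin (Lep), another fat cell hormone, averaged 4.97 ± 0.22 in NZO and 4.77 ± 0.12 in BKS (SD, n = 3 each). Fabp4, a fatty acid carrier of fat cells that endothelium also expresses, read 5.87, 7.43 and 6.55 in NZO and 6.83, 5.08 and 5.50 in BKS. It had the highest log2 fold change of the 5, 0.81 (adjusted p = 0.631), with overlapping strains, while resistin (Retn) was at 0.16 and the lipase Lipe at -0.06 (adjusted p = 0.892 and 0.973). Among genes outside the family with a mean of at least 6.22, the median over all genes, the 3 whose values ran closest to Gpat3 over the 6 arrays were the aldehyde oxidase Aox3 (Pearson r = 0.994), the cytochrome P450 Cyp2c39 (r = 0.992) and the acyl-CoA thioesterase Acot4 (r = 0.991). These correlations over 6 arrays are descriptions and are carried by the gap between the strains.

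The bases before a RefSeq start of Gpat3 are shown because it had the largest change. Those of Mogat1 are shown because it is the other gene that rose, and both starts of Gpam because its probe sets disagreed. Sequences are from RefSeq (GRCm38.p6), cover the 250 bases before each start and run 5′ to 3′ on the gene's strand, with matches to the motifs searched in capitals. Gpat3 lies on the plus strand (chr5:100845979-100846228), Mogat1 on the plus strand (chr1:78510810-78511059), and Gpam on the minus strand (chr19:55127239-55127488 for its upstream start and chr19:55099478-55099727 for its downstream start). The annotated Gpat3 gene begins at 100845665, so its window lies inside the gene, before a start downstream of the gene's first base. The annotated Gpam gene runs from 55067635 to 55127319, so its downstream window lies inside the gene and its upstream window overlaps it.
Gpat3: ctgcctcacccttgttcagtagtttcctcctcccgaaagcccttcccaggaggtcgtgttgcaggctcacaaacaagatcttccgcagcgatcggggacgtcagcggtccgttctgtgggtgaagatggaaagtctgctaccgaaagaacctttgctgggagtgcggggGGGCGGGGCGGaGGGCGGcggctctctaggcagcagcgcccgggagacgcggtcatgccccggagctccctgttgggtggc
Mogat1: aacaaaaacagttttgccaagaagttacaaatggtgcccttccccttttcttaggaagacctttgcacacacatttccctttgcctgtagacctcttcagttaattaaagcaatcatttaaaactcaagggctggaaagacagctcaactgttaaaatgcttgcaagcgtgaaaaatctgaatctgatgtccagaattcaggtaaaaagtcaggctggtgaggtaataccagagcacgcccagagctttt
Gpam upstream start: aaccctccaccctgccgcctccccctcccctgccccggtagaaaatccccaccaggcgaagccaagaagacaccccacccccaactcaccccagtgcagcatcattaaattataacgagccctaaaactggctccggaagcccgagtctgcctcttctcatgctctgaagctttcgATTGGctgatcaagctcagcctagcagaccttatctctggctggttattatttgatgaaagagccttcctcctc
Gpam downstream start: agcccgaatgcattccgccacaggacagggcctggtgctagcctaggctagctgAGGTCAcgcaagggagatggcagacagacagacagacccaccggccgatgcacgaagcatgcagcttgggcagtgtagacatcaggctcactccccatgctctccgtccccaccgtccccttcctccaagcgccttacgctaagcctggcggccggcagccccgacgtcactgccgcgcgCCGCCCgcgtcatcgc

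The capitals in the Gpat3 window are 3 matches to the GC box GGGCGG, of which the upstream 2 overlap, at 81, 76 and 69 bases before the start. A GC box was present in 32.7% of all 32851 windows of this length. None of the motifs searched had a match in the Mogat1 window. The upstream Gpam window held 1 CCAAT box on the opposite strand, as did 33.8% of all windows in either orientation. The downstream window held the nuclear receptor element AGGTCA, present in 14% of all windows, and a GC box on the opposite strand. Both strands were searched. The PPAR/RXR element (AGGTCA repeated with 1 base between the copies, in 0.0335% of all windows), the sterol regulatory element core TCACNCCAC (1.05%), the E-box CACGTG (6.02%) and the TATA box TATAAA (12.4%) were not among the letters of these 4 windows. GC content was 64% for Gpat3, 41.2% for Mogat1 and 54.8% and 66% for the upstream and downstream Gpam windows, against a median of 52.4% over all windows. RefSeq windows were matched for 6 of the 9 genes, without Gpat4, Dgat1 and Dgat2.

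Gpam, the mitochondrial enzyme and a known target of insulin and SREBP-1c in liver, gave different answers by probe set. Its brighter probe set, 1419499_at, read 11.4, 11.6 and 11.4 in NZO and 11.7, 11.5 and 11.6 in BKS. The strains overlapped, and the log2 fold change was -0.12 (95% interval -0.48 to 0.25, adjusted p = 0.848), with the opposite sign after repeated quantile normalization (0.18) or cyclic loess (0.22). This interval leaves out a doubling in either direction on that probe set. The dimmer probe set, 1425834_a_at, read 9.16, 9.26 and 8.15 in NZO and 6.85, 6.72 and 7.96 in BKS. All 3 NZO arrays lay above all 3 BKS arrays, though NZO replicate 3 and BKS replicate 3 were close to each other.

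The dimmer Gpam probe set had a log2 fold change of 1.68 (standard error 0.42), and missed the threshold over all probe sets (adjusted p = 0.221, unadjusted p = 0.00526), also with the number 1 arrays as a block (adjusted p = 0.0808). The suffix _a_at marks a probe set designed to several transcripts of a single gene. Within each array, the dimmer minus the brighter probe set was -2.23, -2.36 and -3.26 in NZO and -4.89, -4.74 and -3.62 in BKS. This difference was 1.80 higher in NZO (exact two-sided permutation p = 0.1, the smallest that 3 against 3 arrays allow). The difference was examined because the 2 probe sets disagreed, and a test of this size cannot pass 0.05. Which RefSeq start or transcript each of these probe sets reports was not tested. In the same array order, the 3' minus 5' signal of Gapdh was -0.04, 0.11 and 0.14 in NZO and 0.77, 0.98 and 0.45 in BKS. For beta-actin it was 1.29, 1.34 and 1.39 in NZO and 1.72, 2.33 and 1.92 in BKS. RNA quality thus differed between the same groups, and its part in the Gpam difference was not tested.

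Gpat4, the other enzyme of the endoplasmic reticulum in this step, read 9.32, 9.95 and 9.72 in NZO and 8.40, 9.45 and 9.63 in BKS. The strains overlapped, with a log2 fold change of 0.50 (95% interval -0.30 to 1.31, adjusted p = 0.646). The difference was 0.93 between the number 1 arrays and 0.29 among the other 4. A further probe set, whose mean exceeded 43.7% of all probe sets in NZO and 33.7% in BKS, read 4.79 to 5.01 in NZO and 4.36 to 4.62 in BKS, without overlap but not past the test (0.41, adjusted p = 0.365). Among the 17 probe sets, 6 were higher in every NZO array than in any BKS array and none was lower in every one, where 15.3% of all probe sets separated in either direction. Only those of Gpat3 and Mogat1 passed, against 0.424% of all probe sets.

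The acylglycerolphosphate acyltransferases did not pass. Agpat2, the isoform whose loss causes lipodystrophy in humans and mice, read 11.2, 12.1 and 12.0 in NZO and 12.1, 11.9 and 12.1 in BKS. Only NZO replicate 1 stood below the rest, and the log2 fold change was -0.25 (95% interval -0.82 to 0.33, adjusted p = 0.774), or 0.021 without that array and 0.049 and 0.096 after repeated quantile normalization and cyclic loess. Agpat1, a widely expressed isoform, read 6.78, 6.20 and 5.77 in NZO and 6.02, 5.74 and 6.08 in BKS, which overlap (0.31, 95% interval -0.32 to 0.93, adjusted p = 0.736). Its further probe set averaged 6.14 ± 0.24 in NZO and 5.80 ± 0.22 in BKS (SD, n = 3 each), with a log2 fold change of 0.33 (adjusted p = 0.622). On that probe set the strains did not overlap, with NZO above.

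Agpat3 was covered by 4 probe sets. The brightest read 9.35, 10.9 and 10.9 in NZO and 10.1, 10.6 and 10.7 in BKS. NZO replicate 1 was the lowest of the 6 arrays, and the other 2 NZO arrays were the highest. The log2 fold change was -0.06 (95% interval -1.08 to 0.95, adjusted p = 0.975), and 0.46 without NZO replicate 1. The 3 further probe sets had log2 fold changes of 0.27, 0.15 and 0.52 (adjusted p = 0.766, 0.953 and 0.578), all with overlapping strains. The one at 0.15 carries the suffix _s_at, which marks sequence shared with other transcripts.

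Mogat1, which acylates monoacylglycerol and is usually low in mouse liver, was the other gene that rose. It read 7.79, 7.33 and 7.00 in NZO and 5.67, 5.65 and 5.04 in BKS. The lowest NZO array was more than 1 unit above the highest BKS array. The means were 7.37 ± 0.39 in NZO and 5.45 ± 0.36 in BKS (SD, n = 3 each), a 3.78-fold difference (log2 fold change 1.92, standard error 0.26, 95% interval 1.30 to 2.54, adjusted p = 0.0286). Its mean exceeded 77.7% of all probe sets in NZO and 56.3% in BKS. The difference was 2.11 between the number 1 arrays and 1.82 among the other 4, where it also passed (adjusted p = 0.00655).

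The call for Mogat1 rested on all but 1 of the arrays. It was lost without NZO replicate 2 or 3 (adjusted p = 0.0848 and 0.0827) and without BKS replicate 1, 2 or 3 (adjusted p = 0.0587, 0.149 and 0.131), and kept without NZO replicate 1 (adjusted p = 0.0212), while the log2 fold change stayed between 1.71 and 2.10. The other monoacylglycerol acyltransferase measured, Mogat2, which is best known from the intestine, read 5.44, 5.25 and 5.00 in NZO and 4.85, 4.89 and 4.97 in BKS (0.33, adjusted p = 0.522). Its NZO values were all above its BKS values by small margins. By the same measure and limit, the genes running closest to Mogat1 were the ecto-5′-nucleotidase Nt5e (r = 0.977), the melanocortin receptor accessory protein Mrap2 (r = 0.976) and the acyl-CoA thioesterase Acot3 (r = 0.970). As for Gpat3, these correlations are descriptions and are carried by the gap between the strains.

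The last step showed no change past the test. Dgat2, the isoform tied to newly made fatty acids, read 11.3, 12.2 and 12.2 in NZO and 12.0, 12.4 and 12.4 in BKS. The strains overlapped, with a log2 fold change of -0.37 (95% interval -1.04 to 0.30, adjusted p = 0.699). Its further probe set read 9.27, 10.7 and 10.5 in NZO and 9.24, 9.90 and 10.5 in BKS, with the opposite sign (0.29, adjusted p = 0.901). The upper bounds of the 2 probe sets, 0.30 and 1.37, lie below the lower bound for Gpat3, 2.62.

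Dgat1, which re-esterifies fatty acids taken up by the cell, read 7.62, 8.30 and 8.40 in NZO and 8.17, 8.57 and 8.79 in BKS on a probe set with the suffix _s_at. The log2 fold change was -0.41 (95% interval -1.02 to 0.21, adjusted p = 0.628). Its further probe set was near the middle of the array at 5.17 ± 0.15 in NZO and 4.93 ± 0.03 in BKS (SD, n = 3 each), again with the opposite sign (0.23, adjusted p = 0.644). There the strains did not overlap, with NZO above. Across the family, the 8 further probe sets all had log2 fold changes above 0, against 4 of the 9 brightest and 50.2% of all probe sets. Several of the 8 belong to Agpat3 and all were read on the same arrays, so they do not count as independent. The share among further probe sets of other genes was not computed. Those of Agpat3 at 0.15 and Dgat2 at 0.29 took the opposite sign without BKS replicate 1 (-0.28 and -0.032).

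**Figure D2:**
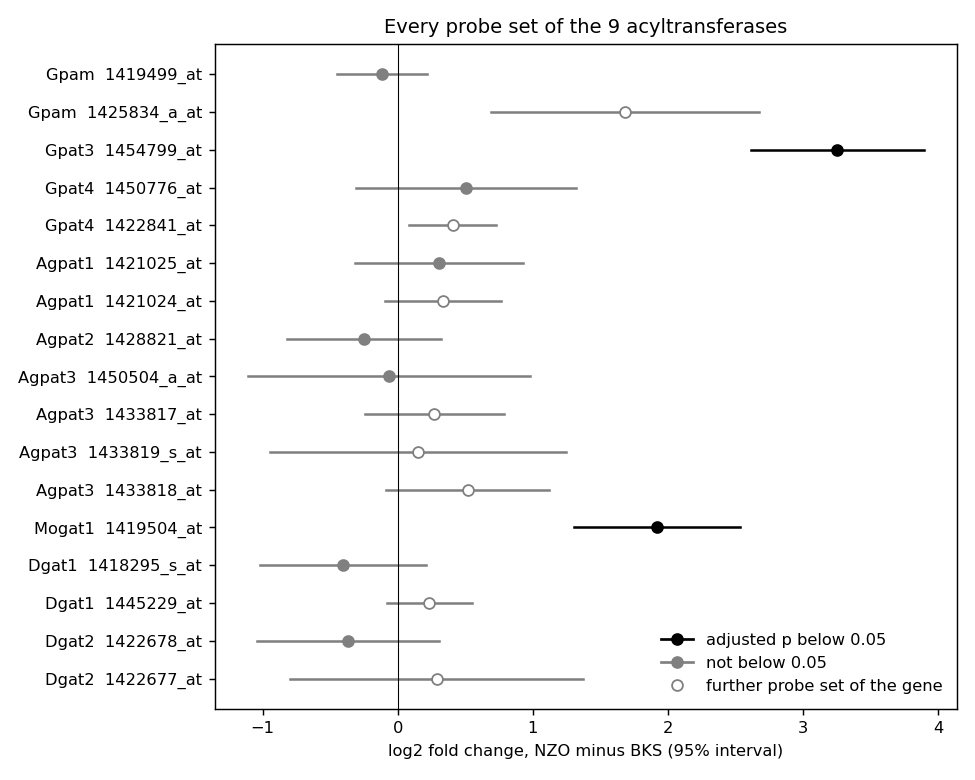
Log2 fold change of NZO over BKS with its 95% interval for each of the 17 probe sets, ordered by step of synthesis. The probe sets of Gpat3 (3.25) and Mogat1 (1.92) passed, and the dimmer probe sets of Gpam (1.68) and Gpat4 (0.41) have intervals above 0 without passing the adjusted threshold.

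The arrays titled number 1 were at one end of their strain for some members. In Gpat4, Agpat3, Dgat1 and Dgat2 the number 1 array was the lowest of its 3 in both strains (4 of 9 genes, against 36.3% of all genes), and in Mogat1 it was the highest in both (1 of 9, against 12.3%). The differences between the number 1 arrays were -0.72 for Agpat3, -0.55 for Dgat1, -0.72 for Dgat2 and -0.85 for Agpat2. Among the other 4 arrays they were 0.27, -0.33, -0.19 and 0.05. The hepatocyte marker mean of NZO replicate 1 (13.1) also lay below that of the other 5 arrays, all at 14.0. Gpat3 and Mogat1 kept their direction in both subsets.

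**Figure D3:**
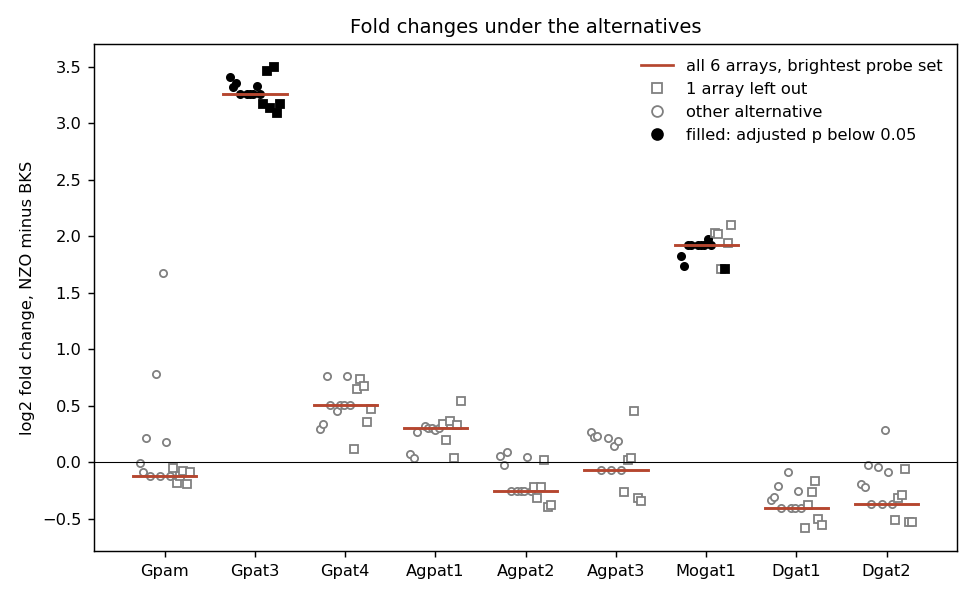
Log2 fold change of each gene under 15 alternatives (Agpat1 has 14, since it is too dim for the filter), with the value over all 6 arrays as a line, squares for 1 array left out and filled symbols for an adjusted p below 0.05. Gpat3 is filled throughout, Mogat1 opens in 5 of the 6 settings that leave out an array, and Gpam reaches 1.68 when its more variable probe set stands for it.

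The genes around the family did not pass the test as single genes. Of 88 genes in 8 lists on glycerolipid synthesis and its surroundings, 78 were measured. Not measured, and so not tested, were Acsl1, Gk, Dgat2l6, Awat1, Awat2, Etnk2, Lipc, Ces3a, Ces3b and Nr1h2. The limma test called none of the 78, where 0.742% of all genes passed, and at that share lists of this size can hold none. At an unadjusted p below 0.05, 2 were higher and 5 lower, where 11.4% of all genes were below it. With the number 1 arrays as a block, 2 were higher (Fitm1 and G0s2) and 6 lower (Tmem68, Bscl2, Cds2, Ppargc1b, Cdipt and Plin3), where 6.55% of all genes passed, 275 higher and 917 lower. Adjusted p-values of that fit are given as blocked adjusted p. The median log2 fold change over the 78 was -0.07.

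Upstream of the acyltransferases, none of 6 genes of glycerol-3-phosphate supply passed (median 0.25), with Gpd1l at 0.58 (adjusted p = 0.574) and the glycerol channel Aqp9 at -0.42 (adjusted p = 0.609). Of 7 measured genes that supply acyl-CoA, without Acsl1, none passed (median -0.05), with Slc27a5 at -0.20 and Slc27a4 at -0.32 (adjusted p = 0.830 and 0.845). Among 7 phosphatidate phosphatases, which make the diacylglycerol used by Dgat1 and Dgat2, none passed (median 0.15). Plpp2 was at -0.57 (adjusted p = 0.455) and Lpin1, the major lipin of fat and muscle, at 0.92 (adjusted p = 0.670).

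None of 8 other acyltransferases measured passed, and 2 of them had log2 fold changes above 0 (median -0.25). Tmem68, which can make triglyceride without the Dgat enzymes, read 5.86, 6.78 and 6.25 in NZO and 7.94, 7.90 and 7.47 in BKS. No NZO array reached a BKS array, and the log2 fold change of -1.47 came close to the threshold (standard error 0.26, adjusted p = 0.0658, blocked adjusted p = 0.0116). Abhd5, better known as the coactivator of the lipase Pnpla2, was at -0.67 (adjusted p = 0.200), also without overlap.

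Of 18 phospholipid genes none passed (median -0.10). Cds2, which turns phosphatidic acid towards phosphatidylinositol and cardiolipin, read 8.93, 9.83 and 9.81 in NZO and 10.2, 11.0 and 10.8 in BKS (log2 fold change -1.14, adjusted p = 0.192, blocked adjusted p = 0.00427). Cdipt, which makes phosphatidylinositol, was at -0.84 (adjusted p = 0.503, blocked adjusted p = 0.0144). Of 14 genes of storage and export none passed (median -0.03). The droplet-forming protein Fitm1 read 9.51, 10.3 and 9.91 in NZO and 6.67, 8.38 and 8.92 in BKS (1.91, adjusted p = 0.224, blocked adjusted p = 0.00905), while seipin (Bscl2) was at -1.01 (adjusted p = 0.182, blocked adjusted p = 0.0184).

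Of 6 genes of triglyceride breakdown none passed (median -0.16). The lipase inhibitor G0s2 read 10.8, 10.8 and 11.3 in NZO and 9.76, 9.81 and 10.4 in BKS, without overlap (0.97, adjusted p = 0.162, blocked adjusted p = 0.0292), and Aadac was at -0.40 (adjusted p = 0.572). Among 12 regulators none passed (median -0.25), with Ppargc1b, a coactivator of lipid genes, at -0.80 (adjusted p = 0.195, blocked adjusted p = 0.0321) and Rxra, the partner of PPAR and LXR receptors, at -0.64 (adjusted p = 0.619).

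**Figure D4:**
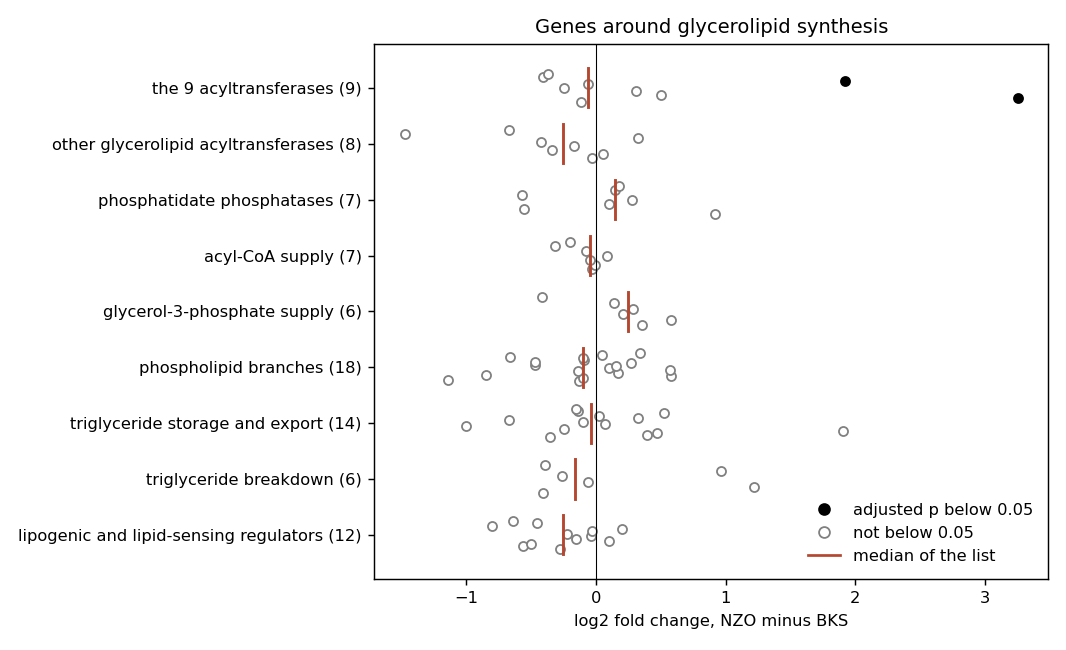
Log2 fold change of NZO over BKS for the 9 acyltransferases and 8 lists of genes around glycerolipid synthesis (number measured in brackets), with the median of each list as a line. Filled points are the genes past the test, Gpat3 (3.25) and Mogat1 (1.92).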

How the data were processed

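Each sample is 1 array. The authors deposited log2 values for its probe sets, for which the submitters' processing notes name RMA and the Affymetrix Expression Console. Versions, and whether other arrays were normalized with these 6, are not given in the sources used here. RMA gives no detection call, and the number of arrays limits the precision. That each array is a separate animal is not spelled out in the labels, so p-values stand for the spread between these 6 samples, which may be technical. Replicate numbers follow accession order and pair nothing.

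Of 45101 probe sets, 64 are controls, 34945 carry a single gene symbol in the platform table. A further 932 with more than 1 symbol and 9160 absent from that table were left without a gene. Symbols were updated through gene identifiers (18032 genes matched). Where a gene had several probe sets, the brightest on average was used. NZO minus BKS was fitted with limma 3.58.1 in R 4.3.3 (lmFit, eBayes, two-sided) over all 18193 genes and over all 45037 probe sets, with Benjamini-Hochberg adjustment, and checked on simulated data. Alternatives varied how arrays were normalized, whether dim genes were kept, which probe set stood for a gene, how the variance was modelled, and which arrays entered with what weight. All 9 members and every probe set are named whatever their result. From each list of other genes the 2 with the smallest p are named where none passed, and for each member past the test the 3 genes outside the family with the highest correlation among those at or above the median mean of all genes. Members, lists and alternatives were chosen with earlier results of these data known. Cited sequences were searched in Python 3.11.15, and figures drawn with matplotlib 3.10.9.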

Additional observations from a re-analysis of the deposited data

How the results depend on the processing

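The 2 higher and 0 lower calls among the 9 acyltransferases, and likewise among their 17 probe sets, stood in every alternative run except single arrays left out, where the higher count was 1 to 2 of genes and 0 to 2 of probe sets. Gpat3 passed in all 15 alternatives over genes. Mogat1 passed in 10, and with 1 array left out its log2 fold change was 1.71 to 2.10. No alternative brought another member past the threshold.

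Uncalled members changed sign as follows, the values being log2 fold changes. Gpam was at 0.18 after repeated quantile normalization, 0.22 after cyclic loess, 0.78 as the mean of its probe sets and 1.68 by its probe set of largest interquartile range. Agpat2 was at 0.049, 0.096 and 0.054 after quantile normalization, cyclic loess and among 2 against 2 arrays without the number 1 arrays, and at -0.39 to 0.021 with 1 array left out. Agpat3 was at 0.19 and 0.23 after the 2 normalizations, 0.22 as the mean of probe sets, 0.15 by largest interquartile range, 0.22 with array weights, 0.27 among 2 against 2 arrays, and -0.34 to 0.46 with 1 array left out. Dgat2 was at 0.29 by largest interquartile range. With 1 array left out, further probe sets reached -0.28 (Agpat3, 1433819_s_at, highest 0.51) and -0.032 (Dgat2, 1422677_at, highest 0.74). The cause of these changes was not tested, except that another probe set was used where named.

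No paired analysis was made, because the groups are different inbred strains and the labels give no pairs. The strains share 1 title number, which the labels do not call a pair. Over all genes, higher and lower counts were 192 and 235 after quantile normalization, 208 and 221 after cyclic loess, 99 and 147 by largest interquartile range, 121 and 160 with trended and robust variance, 399 and 899 with array weights, 275 and 917 with the block, and 363 and 549 among 2 against 2 arrays. With 1 array left out they were 10 to 150 and 14 to 108. Among the 78 other genes of glycerolipid synthesis, higher and lower counts were 1 and 3, 2 and 3 after the 2 normalizations, 2 and 5 with array weights, 2 and 6 with the block, and 3 and 5 among 2 against 2 arrays. The filter on dim genes and trended variance each gave 1 lower, and leaving out 1 array gave 0 to 1 higher. The BKS means of Gpat3 and Mogat1 lie near the middle of the array, and whether low signal limits their folds was not tested.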

Other observations

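Some genes listed around the family had arrays far from the rest, and 3 of them are given here as examples chosen after their values were seen. Insig1, which retains SREBP proteins in the endoplasmic reticulum and is itself an SREBP target, read 5.71, 9.23 and 8.65 in NZO and 5.20, 9.61 and 10.3 in BKS. Both arrays titled number 1 were thus far below the other arrays of their strain, and the strains themselves differed by -0.50 (adjusted p = 0.939). Pnpla3, a lipid droplet protein induced by feeding, read 8.67, 6.22 and 5.80 in NZO and 6.01, 5.63 and 5.38 in BKS. NZO replicate 1 alone stood above the rest. Lpin1 read 8.47, 10.9 and 8.31 in NZO and 7.74, 8.54 and 8.63 in BKS, with NZO replicate 2 apart. Neither of these 2 genes passed between the strains (adjusted p = 0.573 and 0.670).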
